A study of Mus musculus with 4 samples.

Results

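Substrate receptors of the cullin ubiquitin ligases were followed in sorted mouse thymocytes. They were taken as the protein-coding genes whose symbol is Fbxo, Fbxw, Fbxl, Klhl, Dcaf, Asb or Kctd followed by a digit, with a CPM (the count scaled to library size) of at least 2 in at least 1 library. The symbols alone gave 165 genes, and 115 of them passed that level, among 12490 genes measured in all. Of the 115, 99 reached it in all 4 libraries and 16 in some of them, and the other 50 are not measured here. By family they were 52 F-box genes, 25 KLHL genes, 12 DCAF genes, 8 ASB genes and 18 KCTD genes. At the limit itself, Asb15, Asb14 and Fbxl2 stayed just outside with highest values of 1.56, 1.65 and 1.65 CPM, and Klhl32, Fbxl16 and Kctd4 just inside with 2.01, 2.11 and 2.12 CPM.

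A cullin ligase is a scaffold with a RING protein at one end and an exchangeable receptor at the other, and the receptor decides which protein is given ubiquitin. F-box proteins bind through SKP1 to CUL1, KLHL proteins and many KCTD proteins bind through their BTB domain to CUL3, DCAF proteins bind through DDB1 to CUL4, and ASB proteins bind through elongins B and C to CUL5. Attachment of NEDD8 to the cullin, for which UBA3 is the catalytic subunit of the activating enzyme, switches these ligases on and takes part in the exchange of receptors, so the receptors act downstream of the gene targeted in these mice. In thymocytes, cullin receptors are known for limiting NOTCH, MYC and cyclin-dependent kinase inhibitors.

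The 4 libraries of total RNA came from the thymus of untreated C57BL/6 mice, 6-8 wk old, 1 library for each combination of genotype and sorted population. KO is Uba3ΔT, given as Uba3-/- in the genotype label, and WT is Uba3F/F, given as wild type; the driver of the deletion in T cells, the number of animals behind a library and any pooling are not given in the sources used here. Group 3 is TCRβhi CD69hi and group 2 is TCRβint CD69hi, both thymocytes that have received a T cell receptor signal, with group 3 the later. The cell type field of the labels names group 2 for both WT libraries and group 3 for both KO libraries, and the titles, which give all 4 combinations, were followed. The libraries held 8964120 counts (KO group 2), 10299863 counts (WT group 2), 9689339 counts (KO group 3) and 8043077 counts (WT group 3).

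The targeted gene goes against the label. Uba3 had 647 and 856 counts in the libraries labelled KO (group 2, then group 3) and 453 and 356 counts in the WT libraries, and edgeR's quasi-likelihood test gave a log2 fold of 0.90 ± 0.17 (SE), adjusted p = 2.65e-05. A count over the whole gene does not separate the deleted part from the rest, so KO below means the library labelled KO. An exchange of the labels was not tested, and it would turn round every direction given between KO and WT. The 7 T cell genes checked (Cd3e, Cd3d, Cd3g, Lck, Cd2, Trbc1 and Cd69) were present in each library and summed to between 11262 and 12690 CPM. The 5 genes of mature thymocytes summed to 1532 CPM (KO) and 1522 CPM (WT) in group 3, and to 517 CPM (KO) and 568 CPM (WT) in group 2. The 5 genes of immature double-positive cells were lower in KO, with 1245 against 1743 CPM in group 2 and 964 against 1365 CPM in group 3. In bulk samples such as these, fewer cells of a type and less RNA per cell cannot be told apart.

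The receptors were mostly expressed at moderate levels. In RPKM, which scale counts by gene length and library size, the median of the receptors' means over the 4 libraries was 8.55, against 13.5 for all measured genes. Klhl6, a lymphoid KLHL protein needed for germinal centre B cells, was the highest, with 267 RPKM in KO group 2, 290 RPKM in WT group 2, 275 RPKM in KO group 3 and 270 RPKM in WT group 3. Fbxo9 (mean of 140 RPKM), Fbxl12 (124 RPKM) and Fbxw2 (120 RPKM) came next, and the ranges of these 3 F-box genes over the 4 libraries overlapped, while Klhl6 stood above them in every library. Fbxl12 is known in mouse thymocytes for the turnover of the kinase inhibitor CDKN1B. The highest of the other families were Dcaf13, a nucleolar protein of ribosome assembly (78.9 RPKM), Kctd20 (55.1 RPKM) and Asb6 (46.1 to 51.8 RPKM over the libraries). The KO over WT ratios of these last 3 lay between 0.999 (Dcaf13, group 2) and 1.22 (Kctd20, group 3).

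**Figure D1:**
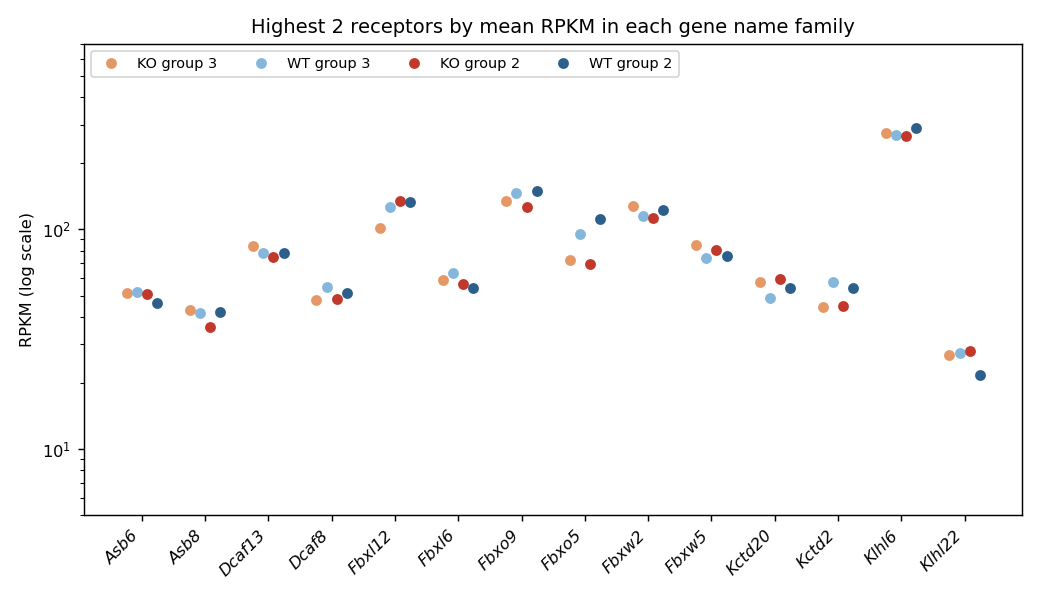
Length-scaled levels (RPKM, log scale) of the 2 receptors with the highest means in each gene name family (14 in all), with 1 point for each library. Klhl6 stands at 267 to 290 RPKM in the 4 libraries, and Fbxo5 has both KO points under both WT points (69.8 and 72.7 RPKM against 111 and 95.1 RPKM).

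The families as wholes were at similar levels in KO and WT. Summed over its members and scaled by edgeR's trimmed mean factors (TMM), the F-box family reached 2124 CPM in KO group 2 and 2152 CPM in WT group 2, and 2259 CPM in KO group 3 and 2128 CPM in WT group 3. The KLHL family summed to 725 and 704 CPM in group 2, and to 792 and 723 CPM in group 3, each pair KO then WT. The DCAF family gave 756 and 767 CPM in group 2 and 778 and 801 CPM in group 3, the ASB family 250 and 254 CPM, then 290 and 265 CPM, and the KCTD family 380 and 379 CPM, then 401 and 370 CPM, in the same order. By length-scaled levels the ASB family (median 19.4 RPKM over 8 genes), the DCAF family (18.5 RPKM) and the F-box family (12.6 RPKM) stood above the KCTD family (5.34 RPKM) and the KLHL family (4.26 RPKM). In the KLHL family Klhl6 alone gave 294 of the 725 CPM in KO group 2.

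The first comparison asked which receptors differ between the KO and WT libraries on average over the sorted groups. A call in it does not require a difference in each group. edgeR's quasi-likelihood test, fitted on all measured genes with sorted group and genotype as terms, called 5 of the 115 receptors at an adjusted p under 0.05. Fbxo17, Fbxo27 and Fbxo33 were higher and Dcaf17 and Fbxo5 lower in KO. That is 3 higher, beside 2.95% of all measured genes, and 2 lower, beside 1.87% (4.82% in either direction), so the receptors were called about as often as all genes. At an unadjusted p under 0.05 there were 11 receptors (9.57%), against 13.2% of all measured genes. The calls rest on 1 residual degree of freedom: DESeq2 on the same model called 0 of the receptors (7 at an unadjusted p under 0.05) and 1.62% of all genes to which it gave an adjusted p, and leaving out a library, with genotype as the only term, left 1 call without KO group 2 (Fbxo17) and 0 without any other library. Of the 6 myeloid genes checked, 2 (C1qb and Ngp) were higher in KO by edgeR. All 6 together summed to 63.2 CPM in KO and 43.6 CPM in WT in group 2. In group 3 the 6 summed to 105 CPM in KO and 51.1 CPM in WT. Ngp had 204 counts in KO group 3 and at most 6 elsewhere, and S100a8 had 0 in WT group 3. The 5 B cell genes summed to 77.2 CPM in KO and 64.5 CPM in WT in group 2, and to 60.5 CPM in KO and 55.4 CPM in WT in group 3, and no B cell or myeloid gene besides S100a8 was at 0 in any library. The 4 erythroid genes summed to 405 CPM in KO and 274 CPM in WT in group 2, and to 290 CPM in KO and 295 CPM in WT in group 3. Of the 2 NK cell genes, Ncr1 had 28 counts in KO and 0 in WT in group 2, and 20 and 3 in group 3. Klrb1c went the other way, with 13 counts in KO and 70 in WT in group 2, and 23 and 30 in group 3. The part of these cells, and of the immature cells given above, in the receptors' values was not tested.

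Fbxo17 and Fbxo27 belong to the small set of F-box proteins that recognise sugar chains of glycoproteins. Fbxo17 (ENSMUSG00000030598) had 330 counts in KO and 250 in WT in group 2, and 512 counts in KO and 183 in WT in group 3. Both KO libraries lay above both WT libraries, and the edgeR log2 fold was 0.95 ± 0.21 (SE), adjusted p = 0.000279. Its ratio in group 3, 2.40 with a 95% interval from 2.02 to 2.85, was past 2-fold, and the ratio in group 2 was 1.57 (1.33 to 1.86). Fbxo27 (ENSMUSG00000037463) had 279 counts in KO and 172 in WT in group 2, and 241 counts in KO and 114 in WT in group 3. Its folds were nearly equal at the 2 steps, with log2 values of 0.93 and 0.83, and edgeR gave 0.90 ± 0.23 (SE), adjusted p = 0.00436. Fbxo6, of the same kind, and Fbxo44 were picked after their values were seen, and neither was called. Fbxo6 had an edgeR log2 fold of 0.58 ± 0.23 (SE), adjusted p = 0.162, and Fbxo44 one of 0.16 ± 0.25 (SE), adjusted p = 0.902.

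Fbxo17 and Fbxo27 are neighbours on chromosome 7. In mm10, Fbxo27 spans chr7:28692849-28699338 and Fbxo17 chr7:28716804-28738144, both on the plus strand and 17466 bases apart. The other 8 measured genes within 100 kb of Fbxo17 were not called by edgeR, with log2 folds between -0.58 (Lgals4) and 0.12 (Nfkbib), and the nearest of them, Mrps12 and Sars2, stood at -0.10 and -0.12. In annotated transcripts, Fbxo27 shares none of its runs of 50 bases with another gene and Fbxo17 shares 0.157% of them.

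**Figure D2:**
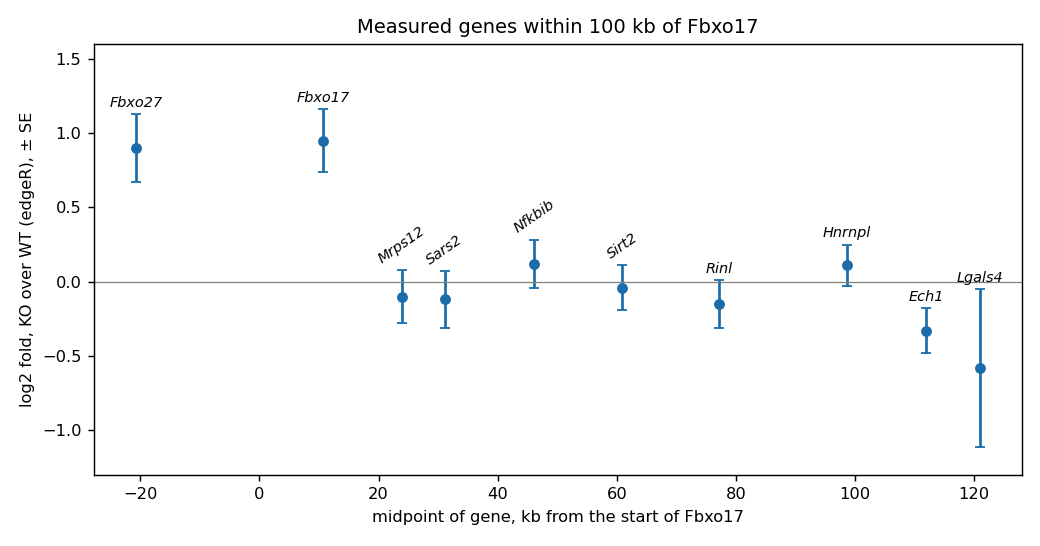
edgeR log2 fold, KO over WT, with its standard error, for Fbxo17 and the 9 measured genes within 100 kb, placed by the distance of their midpoint from the start of Fbxo17 in kb. Fbxo27 and Fbxo17 sit at 0.90 and 0.95, and the other 8 lie between -0.58 and 0.12.

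The promoters of the pair are shown because the neighbours rose together, and that of Fbxo5, further on, because it fell together with markers of cycling cells. They are RefSeq sequences of GRCm38.p6, from 250 bases before to 50 bases after the annotated start nearest to that of the gene, 5′ to 3′ on the gene's strand. The motifs searched, on both strands, were the core of the antioxidant response element (TGACNNNGC), the CCAAT box (CCAAT) and the cell cycle genes homology region (TTTGAA). Capitals mark their matches, all of which lie on the strand opposite to the gene. The 2 promoters shown for the pair are Fbxo17 at chr7:28716540-28716839 and Fbxo27 at chr7:28692599-28692898, plus strand. Fbxo17 has 2 listed promoters and Fbxo27 has 4, and matches in the others are not given here.
Fbxo17: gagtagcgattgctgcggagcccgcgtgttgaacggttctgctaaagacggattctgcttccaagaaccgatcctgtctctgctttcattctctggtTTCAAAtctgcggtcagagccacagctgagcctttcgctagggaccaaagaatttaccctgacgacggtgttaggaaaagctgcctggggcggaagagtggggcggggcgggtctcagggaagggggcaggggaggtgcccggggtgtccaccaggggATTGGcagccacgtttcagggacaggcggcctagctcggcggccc
Fbxo27: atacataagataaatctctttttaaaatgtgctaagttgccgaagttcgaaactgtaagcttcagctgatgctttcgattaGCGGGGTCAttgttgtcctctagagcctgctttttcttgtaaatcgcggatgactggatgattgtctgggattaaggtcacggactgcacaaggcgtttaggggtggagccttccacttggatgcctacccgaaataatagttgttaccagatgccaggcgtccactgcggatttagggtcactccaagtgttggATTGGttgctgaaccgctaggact
Fbxo27 holds 1 match to the antioxidant response element core and 1 CCAAT match, and Fbxo17 holds 1 CCAAT match and 1 match to TTTGAA. Of 32851 mouse promoters of the same length, 12.4% hold at least 1 antioxidant response element core, 37.4% at least 1 CCAAT and 17.9% at least 1 TTTGAA.

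Fbxo33, the substrate receptor of a CUL1 ligase, was the third that was higher in KO. It had 756 counts in KO and 574 in WT in group 2, and 1044 counts in KO and 548 in WT in group 3. Both KO libraries lay above both WT libraries, with log2 folds of 0.64 (group 2) and 0.70 (group 3), and an edgeR log2 fold of 0.68 ± 0.16 (SE), adjusted p = 0.00219. The DESeq2 adjusted p was 0.0732, against 0.0879 for Fbxo17 and 0.294 for Fbxo27. No match to the 3 motifs was found in the promoter window of Fbxo33 or of Dcaf17.

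Fbxo5 encodes EMI1, an inhibitor of the anaphase-promoting complex that lets cyclins accumulate in S and G2 phase. It had 731 counts in KO and 1337 in WT in group 2, and 823 counts in KO and 893 in WT in group 3. Scaled to library size these are 82.8 CPM against 127 CPM in group 2, and 86.4 CPM against 110 CPM in group 3, so both KO libraries lay below both WT libraries. edgeR gave a log2 fold of -0.48 ± 0.16 (SE), adjusted p = 0.0485, just under the threshold, and DESeq2 an adjusted p of 0.414. The 4 cycling markers Mki67, Top2a, Ccnb1 and Cdk1 summed to 636 CPM in KO and 956 CPM in WT in group 2, and to 559 CPM in KO and 799 CPM in WT in group 3. By edgeR, 3 of the 4 fell in KO, Top2a by 0.59 and Mki67 by 0.57 on the log2 scale, with adjusted p = 0.00251 and 0.00642; their part in the value of Fbxo5 was not tested. Fbxo5 shares 8.71% of its runs of 50 bases with the predicted gene Gm16042, so part of its reads may not be assigned to it alone.

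The promoter of Fbxo5, at chr10:5805416-5805715 on the minus strand, holds 3 CCAAT matches, at -93, -55 and -25 from the annotated start, and 1 TTTGAA match at 4. Of all promoters, 3.37% hold at least 3 CCAAT matches.
Fbxo5: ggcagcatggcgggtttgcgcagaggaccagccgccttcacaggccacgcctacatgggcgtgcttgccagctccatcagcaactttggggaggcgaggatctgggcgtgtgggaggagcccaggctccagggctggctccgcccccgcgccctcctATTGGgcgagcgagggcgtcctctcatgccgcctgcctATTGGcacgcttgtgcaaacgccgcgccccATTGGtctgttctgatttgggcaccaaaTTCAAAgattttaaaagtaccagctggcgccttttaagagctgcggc

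Dcaf17, a CUL4 receptor whose loss in humans causes Woodhouse-Sakati syndrome, was the other that fell. It had 506 counts in KO and 901 in WT in group 2, and 499 counts in KO and 607 in WT in group 3. Both KO libraries lay below both WT libraries. The ratios were 0.668 (95% interval 0.598 to 0.745) and 0.704 (0.624 to 0.794), and edgeR gave a log2 fold of -0.54 ± 0.17 (SE), adjusted p = 0.0337, against 0.382 with DESeq2. Dcaf17 (chr2:71055328-71099142) overlaps Mettl8 on the opposite strand by 126 exon bases, 1.28% of its own. Mettl8 was not called, with an edgeR log2 fold of -0.20 and adjusted p = 0.787. Kctd10, a CUL3 partner that acts on the GTPase RhoB, was nearest to the threshold among the rest, with an edgeR log2 fold of 0.57 ± 0.20 (SE) and adjusted p = 0.0694.

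**Figure D3:**
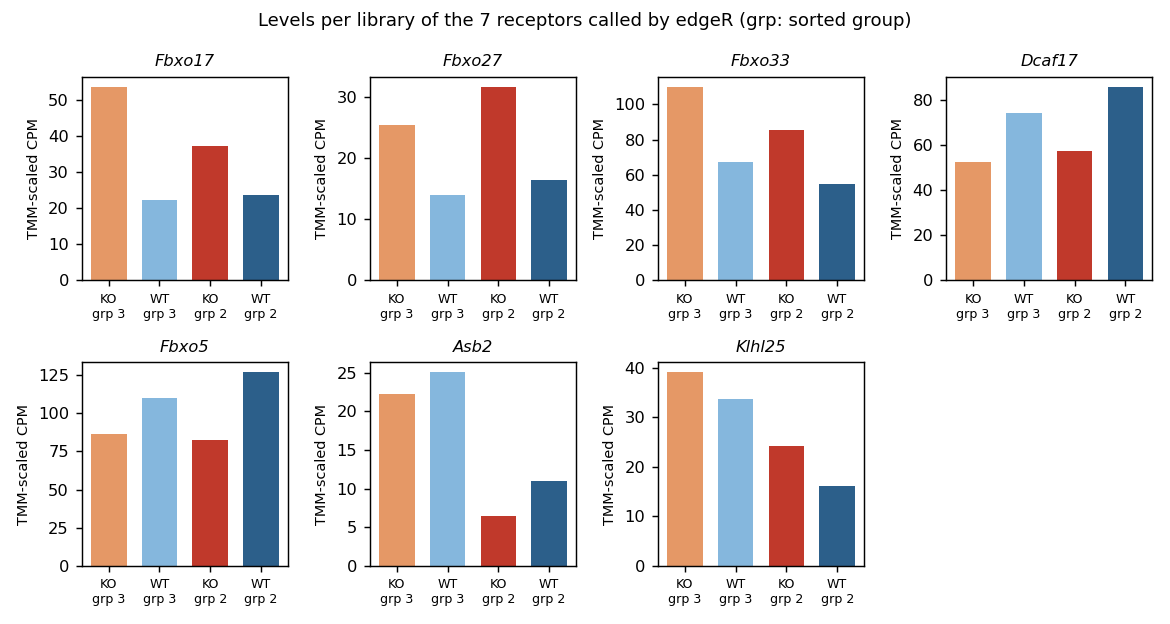
TMM-scaled CPM in each of the 4 libraries for the 7 receptors called by edgeR, with 1 bar for each library (KO and WT of group 3, then of group 2). Fbxo17, Fbxo27 and Fbxo33 have both KO bars above both WT bars and Dcaf17 and Fbxo5 both below, while Asb2 and Klhl25 have both group 3 bars above both group 2 bars.

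Receptors with known substrates in lymphocytes were not called. Fbxw7, which targets NOTCH1, MYC and cyclin E, had 269 counts in KO and 321 in WT in group 2, and 312 counts in KO and 303 in WT in group 3, an edgeR log2 fold of -0.09 ± 0.21 (SE). Fbxw11, one of the beta-TrCP receptors for beta-catenin and IκB, stood at -0.02 (log2 fold, group 2) and 0.44 (group 3). Fbxo11, which targets BCL6, stood at -0.35 and 0.00, Fbxo38, which targets PD-1 in T cells, at -0.20 and 0.19, and Fbxo7 at -0.18 and 0.12. Klhl6, the most abundant receptor, stood at -0.07 and 0.07. None of these 6 was called by edgeR, all with adjusted p of 0.718 or more.

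In each sorted group taken alone, a pair of single libraries was compared, with no replicate check and with 95% intervals that cover counting error only. The 2-fold limit was set on TMM-scaled CPM with 0.5 added, and the ratios printed are those without it. In group 2, 6 receptors were higher and 6 lower in KO by at least 2-fold with an interval that excludes 1, beside 6.45% of all genes higher and 2.44% lower (8.9% in either direction). In group 3, 1 was higher and 2 were lower, beside 2.17% and 5.6% (7.77%). Without the added 0.5, the ratios of 3 more were past 2-fold: Fbxl22 in group 2 (2.09, interval 1.37 to 3.22), and in group 3 Klhl35 (2.35, 1.01 to 6.12) and Kctd12b (0.408, 0.171 to 0.905). The median log2 fold of the receptors was -0.02 in group 2 and 0.03 in group 3, and that of all measured genes 0.00 and -0.01.

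Among receptors with at least 10 CPM in 1 library of the pair, 3 of 80 passed 2-fold in group 2 (2.93% of genes at that level) and 1 of 83 in group 3 (2.07%). Fbxo6, another receptor of glycoproteins, had 219 counts in KO and 123 in WT in group 2, a ratio of 2.12 (1.69 to 2.66), but 266 counts in KO and 212 in WT in group 3, a ratio of 1.07 (0.894 to 1.29). Its WT group 2 library stands apart from the other 3, which hold 24.8 to 27.9 CPM against 11.7 CPM. Fbxw4, encoded at the dactylaplasia locus of the mouse, had 167 counts in KO and 66 in WT in group 2, a ratio of 3.01 (2.25 to 4.06), and 119 counts in KO and 160 in WT in group 3, a ratio of 0.637 (0.498 to 0.812). Of its exon bases, 21.4% also belong to Gm17018 on the opposite strand, and since it is not given whether reads were counted by strand, reads of the shared bases may come from either gene. Klhl5 had 39 counts in KO and 103 in WT in group 2, a ratio of 0.450 (0.303 to 0.657), and 41 counts in KO and 50 in WT in group 3, a ratio of 0.702 (0.453 to 1.08).

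The remaining receptors past 2-fold had under 10 CPM in both libraries of the pair. Among them, Fbxo48, Fbxo24 and Kctd11 reached the limit of 2 CPM only in WT group 2. Kctd12b reached it only in the WT libraries, Fbxl16 only in WT group 3 and Klhl31 only in KO group 3. The limit admitted these genes through the genotype in which they are high, so it favoured the direction of their folds. In group 2, Klhl11, Klhl3, Kctd21 and Klhl31 were higher in KO, and Fbxo48, Fbxo24, Kctd11, Kctd12b and Fbxl16 were lower. Klhl3, which brings WNK kinases to CUL3 in the kidney, had 38 counts in KO and 15 in WT. Kctd21 had 20 counts in KO and 3 in WT, a ratio of 7.93 (2.35 to 41.7), and Kctd11, an antagonist of hedgehog signalling, 1 count in KO and 27 in WT, a ratio of 0.0440 (0.00108 to 0.267). Klhl31 had 14 counts in KO and 0 in WT, which makes it at least 5.55-fold higher when WT is set to a floor of 3 counts. That floor leaves out the counting error of the 14, and the interval of the ratio itself begins at 3.94. In group 3, the 2 lower receptors were Fbxl19, with 9 counts in KO and 22 in WT, and Fbxl16, with 0 counts in KO and 17 in WT, at least 6.62-fold lower when KO is set to the same floor, with an interval of the ratio that reaches up to 0.208.

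Low counts also moved between libraries in genes that thymocytes are not known to use. The 1345 olfactory and vomeronasal receptor genes summed to 191 CPM in KO group 2 and 81.0 CPM in WT group 2, and to 84.5 CPM in KO group 3 and 166 CPM in WT group 3. The 50 genes that fit the symbols but stayed under 2 CPM differed between KO and WT in the same directions, with 25.4 CPM in KO and 14.5 CPM in WT in group 2, and 12 CPM in KO and 26.5 CPM in WT in group 3. The part of these reads in the folds of the low receptors was not tested.

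**Figure D4:**
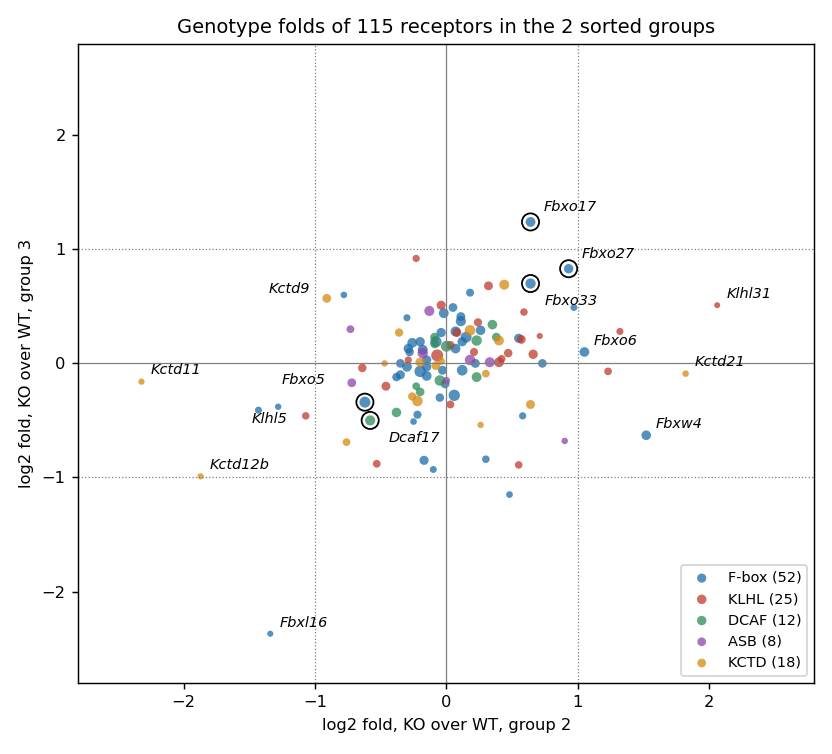
log2 fold, KO over WT (TMM-scaled CPM plus 0.5), of the 115 receptors in group 2 (horizontal) and group 3 (vertical), coloured by family, with larger points for higher mean RPKM, rings around the 5 called by edgeR and dotted lines at 2-fold. Fbxo17, Fbxo27 and Fbxo33 lie in the upper right, Fbxo5 and Dcaf17 in the lower left, and Fbxw4 is higher in group 2 (1.52) and lower in group 3 (-0.63); Klhl31 and Fbxl16 each have a library at 0 counts.

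The genotype folds of the families were centred near 0. The quartiles of the receptors' log2 folds were -0.26 and 0.32 in group 2 and -0.20 and 0.25 in group 3, against -0.26 and 0.30, then -0.29 and 0.23, for all measured genes. Of the 115 receptors, 74 had folds of the same sign in both sorted groups (64.3%, 39 higher and 35 lower), beside 56.2% of all measured genes, and 69 stayed within 0.5 log2 of 0 in both (60.0%, the same share as of all genes). The 2 comparisons share no library. By that range the DCAF family varied least, with 11 of 12 within it, Dcaf17 being the exception, and medians of -0.07 in group 2 and 0.01 in group 3. At 10 CPM in the pair, the standard deviation of its log2 folds was 0.30 in group 2 (11 genes) and 0.28 in group 3 (12 genes). The ASB family, with 5 genes at that level, had 0.41 and 0.23. Dcaf1, the receptor that HIV uses through its Vpr protein in human cells, had log2 folds of -0.09 and 0.17, and Dcaf15, the target of aryl sulfonamide degraders, -0.20 and -0.25.

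Over all members measured, the KLHL family had the highest medians, 0.24 in group 2 and 0.09 in group 3, with 18 of 25 of the same sign in both, 14 higher and 4 lower in KO. Of its members 0 of 25 were called for genotype, by edgeR or by DESeq2, and 2 had an unadjusted p under 0.05 by edgeR. These were Klhl12, which acts on the coat protein SEC31, with log2 folds of 0.32 and 0.68 and an adjusted p of 0.195 by edgeR, and Klhl7, with -0.53 and -0.88 and an adjusted p of 0.217. Among the KLHL genes with at least 10 CPM in the pair, the medians were 0.15 in group 2 (16 genes) and 0.09 in group 3 (17 genes), the second under that of the F-box genes at that level (0.11). The KCTD family had medians of -0.14 and -0.05, and the second became 0.20, the highest of the families, among its 9 genes with at least 10 CPM in the pair. Kctd5, which acts with CUL3 on G protein beta subunits, stood at 0.40 and 0.20, and Kctd7 at -0.76 and -0.69 with at most 82 counts, neither called. The F-box family (-0.04 and 0.02) and the ASB family (-0.06 and 0.02) had medians close to 0, and in group 3 the sign of the F-box, DCAF and ASB medians turned when libraries were scaled by their totals alone (-0.03, -0.03 and -0.02).

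**Figure D5:**
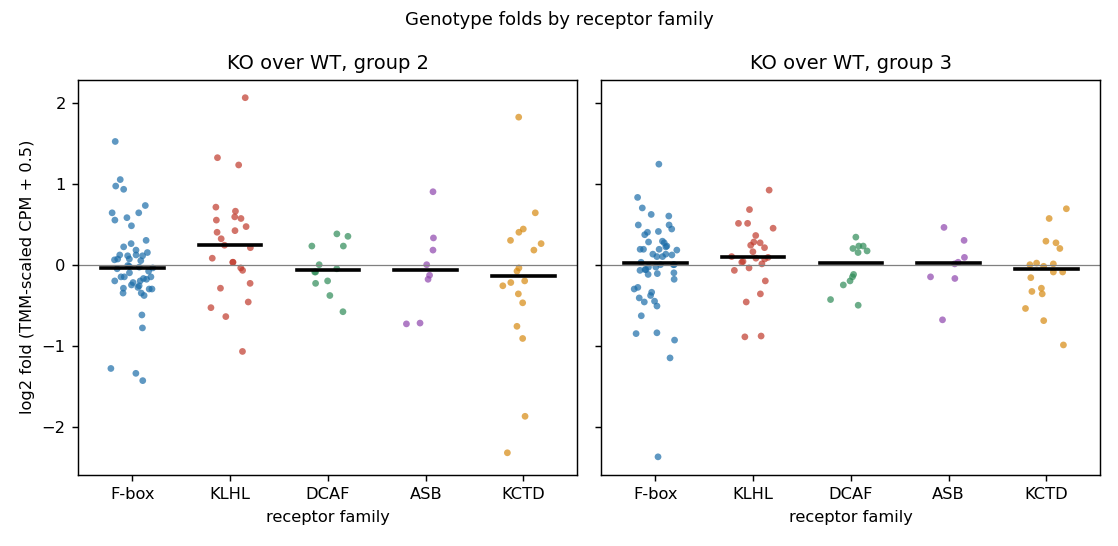
log2 fold, KO over WT (TMM-scaled CPM plus 0.5), of each receptor by family in group 2 (left) and group 3 (right), with 1 point for each gene and a bar at the family's median. The medians lie between -0.14 (KCTD) and 0.24 (KLHL) in group 2 and between -0.05 (KCTD) and 0.09 (KLHL) in group 3.

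The second comparison asked which receptors differ between the 2 sorted steps. edgeR called 2 receptors, Asb2 and Klhl25, both higher in group 3, beside 2.21% of all measured genes higher, 1.14% lower and 3.35% in either direction. At an unadjusted p under 0.05 there were 9 receptors (7.83%), against 10.7% of all genes, and DESeq2 called 1 receptor, Asb2, and 1.38% of all genes to which it gave an adjusted p. Asb2, which brings filamins to CUL5, had 212 counts in group 3 and 57 in group 2 in KO, and 205 counts in group 3 and 115 in group 2 in WT. Its ratios of group 3 over group 2 were 3.45 (2.56 to 4.70) in KO and 2.29 (1.82 to 2.91) in WT, and the edgeR log2 fold was 1.47 ± 0.26 (SE), adjusted p = 2.09e-06, with 0.0285 by DESeq2. Among the 115 receptors, Asb2 was the one past the threshold of both tools in either comparison.

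Klhl25, a CUL3 receptor known for the translation repressor 4E-BP and for ATP citrate lyase, had 372 counts in group 3 and 214 in group 2 in KO, and 274 counts in group 3 and 170 in group 2 in WT. Both group 3 libraries lay above both group 2 libraries, with an edgeR log2 fold of 0.87 ± 0.22 (SE), adjusted p = 0.00363, against 0.243 by DESeq2. The genes of mature thymocytes given above moved with the sort, and all 5 rose by edgeR. Their part in the 2 receptors was not tested. With 1 library left out and sorted group as the only term, neither Asb2 nor Klhl25 was called in any of the 4 fits. In single pairs, 3 receptors were higher and 2 lower by 2-fold in group 3 of KO (1.85% and 5.99% of all genes, 7.84% together), and 9 higher and 1 lower in group 3 of WT (5.22% and 1.86%, 7.08% together). Without the added 0.5, Klhl23 in KO (ratio 0.464, interval 0.289 to 0.730) and Kctd13 in WT (2.04, 1.5 to 2.79) were also past 2-fold. In KO the receptors past 2-fold with the 0.5 added were Asb2, Fbxl21 and Kctd11, higher, and Fbxl19 and Klhl32, lower. In WT they were Asb2, Asb4, Fbxo36, Fbxo6, Fbxw4, Kctd21, Klhl25, Klhl3 and Klhl31, higher, and Fbxo48, lower, and Klhl31, with 12 counts in group 3 and 0 in group 2, was at least 5.15-fold higher against the floor, with an interval that begins at 3.58. At 10 CPM in the pair, 1 stayed in KO (Asb2, beside 2.12% of genes at that level) and 4 in WT (1.86%). Those in WT were Asb2, Klhl25, Fbxo6 and Fbxw4, and Fbxo6 and Fbxw4 are those whose WT group 2 library stood low. Among the lower genes, Fbxl21 reached the limit of 2 CPM only in KO group 3 and Klhl32 only in KO group 2. Asb4 and Fbxo36 reached it only in WT group 3, and Fbxo48 only in WT group 2. The limit admitted each of them through the library in which it is high, so it favoured the direction of the step fold.

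The parts that the receptors plug into were described from 39 genes of the NEDD8 pathway, cullins, adaptors and the COP9 signalosome. By edgeR 2 of the 39 were called (4.82% of all measured genes), Uba3 and Cops8, both higher in KO, and Cops8, a subunit of the complex that removes NEDD8, had a log2 fold of 0.49 ± 0.15 (SE), adjusted p = 0.0342, against 0.321 with DESeq2. The adaptors and scaffolds of the families were not called. Skp1a, Cul1, Ddb1 and Cul5 had edgeR log2 folds of -0.18, -0.07, -0.06 and 0.03. Cul3, the scaffold of the KLHL and KCTD receptors, had 1244 counts in KO and 1531 in WT in group 2, and 1947 counts in KO and 1037 in WT in group 3, log2 folds of -0.05 and 0.68. Elob, the elongin B gene of the ASB ligases, stood at -0.27 and 0.81. Both were near or below WT in group 2 and above it in group 3, a difference between the sorted groups that was not tested.

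Receptors of cullin ligases that do not carry these symbols were read from a list of 71 genes, 68 of them measured. By edgeR 4 were higher and 2 lower in KO, beside 4.82% of all measured genes in either direction. Of these 6, DESeq2 called Kbtbd11 (adjusted p = 0.0264) and Ivns1abp (adjusted p = 1.55e-05), and gave Spsb1, Kbtbd2, Ccnf and Socs3 adjusted p of 0.0563, 0.0782, 0.122 and 0.365. Kbtbd11 had 238 counts in KO and 126 in WT in group 2, and 355 counts in KO and 122 in WT in group 3, a log2 fold of 1.24 ± 0.23 (SE), adjusted p = 1e-05. Spsb1, a receptor for inducible nitric oxide synthase, and Kbtbd2, which limits the PI3K subunit p85 alpha, rose by 0.98 and 0.69 on the log2 scale, and Socs3, a feedback inhibitor of cytokine receptors, by 1.05. Ivns1abp, a kelch protein that binds an influenza virus protein in human cells, had 2146 counts in KO and 5757 in WT in group 2, and 2590 counts in KO and 3533 in WT in group 3, a log2 fold of -0.92 ± 0.14 (SE), adjusted p = 1.98e-08. Ccnf, the F-box protein cyclin F, fell by 0.72 on the log2 scale, with SE 0.18 and adjusted p = 0.00292, and like Fbxo5 it is a gene of cycling cells. The median log2 fold of this list was 0.02 in group 2 and 0.00 in group 3.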

How the data were processed

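TopHat2 2.0.12 and mm10 are named in the submitters' processing notes. How reads were counted, on which annotation and whether by strand is not given in the sources used here. The authors deposited a table of whole-number counts and, per library, RPKM; each deposited RPKM and its count gave a whole gene length within 0.01 bp (100% of values). RPKM served for levels between genes, counts for all tests.

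Of 35275 gene IDs, 34490 matched GENCODE M21. edgeR 4.0.16 (R 4.3.3) gave the TMM factors and the quasi-likelihood F test (sorted group plus genotype) on 12490 genes with 2 CPM in at least 1 library, with Benjamini-Hochberg adjustment, threshold 0.05 and 1 residual degree of freedom. The common coefficient of variation was 0.17, and shrinkage left no spread of a gene's own beyond the trend. Each SE printed or drawn with an edgeR log2 fold was derived from the test, as the absolute log2 fold divided by the square root of its F statistic. Nothing says that libraries came from separate mice, and each combination of genotype and sorted group holds 1 library. The p-values therefore rest on how far the libraries depart from the sum of both terms, pooled over genes. A genotype effect that differs between the sorted groups counts as spread in this model. Tested on simulated counts of 12490 genes, the genotype test found 123 of 200 genes altered 2-fold (4 others called) and 172 of 200 altered 4-fold (10 others called). The altered genes had a mean of at least 20 counts. The simulated counts followed the fitted trend of spread and held no effect of sorted group. Recovery among lower genes, and error under any other spread, were not measured. For a single pair, 0.5 was added to TMM-scaled CPM before the log2 ratio, which understates folds of low genes, and a Clopper-Pearson 95% interval of the count ratio was computed.

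Receptors named are those called, the 2 highest by RPKM of each symbol family, those past 2-fold at 10 CPM, the 5 highest and 5 lowest by the smaller of 2 folds of like sign, and 11 known receptors; others were named after their values were seen. Members and lists were chosen with earlier results of these data known. Alternatives were other scalings, filters and pseudocounts, DESeq2 1.42.0 and limma-voom 3.58.1.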

Additional observations from a re-analysis of the deposited data

Results flagged for a closer look

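The genotype fold pointed in opposite directions in the 2 sorted groups for 4 receptors, each with counting intervals that exclude 1 on both sides. These are 3.48% of the 115 receptors, and 9.50% of all 12490 measured genes met the same condition. With 1 library for each combination this difference was not tested. Fbxw4 had the largest gap: its log2 fold, KO over WT, was 1.52 in group 2 and -0.63 in group 3, a difference of 2.15. Klhl23 stood at 0.55 and -0.89, a difference of 1.44, on 30 to 60 counts in a library. Kctd9 went the other way, at -0.91 and 0.57, a difference of -1.47. It had 101 counts in KO and 230 in WT in group 2, and 170 counts in KO and 97 in WT in group 3. Fbxo38 differed least, at -0.20 and 0.19, a difference of -0.39. For Fbxw4 the WT group 2 library is the low one, with 6.29 CPM, and the other 3 hold 12.5 to 19.6 CPM. For Kctd9 the WT group 2 library is the high one, with 21.9 CPM, and the other 3 hold 11.4 to 17.9 CPM.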

How the results depend on the processing

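No paired analysis was possible because the labels carry no replicate numbers and each group holds 1 library. The 5 genotype calls became 4 with DESeq2 size factors (without Fbxo5) and stayed at 5 with library totals, a filter at 10 CPM, robust shrinkage and limma-voom. They became 3 with the filterByExpr function and 3 when every gene with a count was kept (without Dcaf17 and Fbxo5 in both), 0 with DESeq2's test (7 at an unadjusted p under 0.05) and 0 with genotype as the only term, where 10 receptors had an unadjusted p under 0.05. Leaving out each library gave 0 to 1 calls, Fbxo17 without KO group 2; those fits called 36 to 209 of all genes. The 2 calls for the sorted groups became 1 with DESeq2 (Asb2) and 0 with sorted group as the only term (5 receptors at an unadjusted p under 0.05), and leaving out each library gave 0 to 0; the other settings kept 2. Counts past 2-fold depended on low genes. In group 2 the 12 became 4 with a pseudocount of 2 CPM, 3 at 10 CPM and 24 with 1 count in any library. In group 3 the 3 became 1 at 10 CPM and 12 with 1 count. For group 3 over group 2 the 5 in KO became 1, 1 and 16 under those 3 settings, and the 10 in WT became 5, 4 and 18. No called receptor changed direction under any of these settings, and no uncalled receptor named by the rule gained a call. Intervals cover counting error only, and spread between mice was not measured.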

Other observations

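Among the 68 measured receptors outside the 7 symbol families, 3 were called by edgeR for the sorted groups, beside 3.35% of all measured genes. DESeq2 called Spsb1 (adjusted p = 0.0132) and gave Btbd2 and Brwd3 adjusted p of 0.375 and 0.578. Spsb1 was higher in group 3, with 622 counts in group 3 and 339 in group 2 in KO, and 351 counts in group 3 and 151 in group 2 in WT, a log2 fold of 1.15 ± 0.20 (SE), adjusted p = 1.28e-06. It was also higher in KO than in WT at both steps, by 1.39 (group 2) and 0.60 (group 3) on the log2 scale. Btbd2 was higher in group 3 (log2 fold 0.76, adjusted p = 0.013) and Brwd3, a CUL4 receptor with bromodomains, was lower (log2 fold -0.70, adjusted p = 0.0357). Among the receptors inside the families, Fbxo11 stood nearest to being called as lower in group 3, with 152 counts in group 3 and 196 in group 2 in KO, and 130 counts in group 3 and 298 in group 2 in WT, a log2 fold of -0.65 ± 0.23 (SE), adjusted p = 0.116 by edgeR.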
